A study of Mus musculus with 36 samples.

Results

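The transcripts described are those of 6 genes of the lung lining, the surfactant protein genes Sftpc, Sftpb, Sftpa1 and Sftpd and the airway secretory protein genes Scgb1a1 and Scgb3a2. They were found by their symbols among 27562 genes with a value, and all 6 were read in all 36 libraries of sorted AΦ and monocytes. These were libraries of phagocytes, so the question addressed was how much of these epithelial transcripts the sorted cells carried, and whether the amount followed cell type, exposure, time or origin of the cells. The highest single value was 112 FPKM, of Scgb1a1, and 4 of the 6 genes had a mean below 1 FPKM over the 36 libraries.

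The mice were chimeric males, C57BL/6 in the labels and C57BL/6J in the methods of the study. Their chests were shielded with lead during irradiation, the remaining host marrow was depleted with busulfan, and they received marrow of congenic donors that carry the CD45.1 form of the leukocyte antigen, while the hosts carry CD45.2. After recovery they breathed filtered air (FA) or concentrated fine particles (PM2.5) for 4-weeks or 32-weeks, and lungs were digested with enzymes before cells were sorted. TR-AΦ are tissue-resident alveolar macrophages of the host and BM-AΦ are alveolar macrophages that arose from donor marrow. The irradiation, the busulfan, the transplant, the shielding and the digestion were shared by all groups, so no group held cells of an intact mouse.

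There were 12 groups of 3 libraries. By the methods of the study 3 mice of each exposure and time were chosen for sequencing, so the cell populations of 1 exposure and time can come from the same mice. The labels do not tell which libraries share a mouse, and the tests across cell populations treated all libraries as independent. TR-AΦ of FA exposed mice and TR-AΦ of PM2.5 exposed mice were profiled at 4-weeks and at 32-weeks, and BM-AΦ of each exposure at 32-weeks. Monocytes of each exposure were profiled at 4-weeks, and at 32-weeks as monocytes 1 and monocytes 2, the numbers of the labels. By the paper only cells of CD45.2 origin, that of the host, were sequenced at 4-weeks, monocytes included. By the key that the paper's supplement gives for AΦ, number 1 stands for donor cells and number 2 for host cells, and extending this key to the monocytes is a reading that no label states. Libraries of each group carry the replicate numbers 0, 1 and 2. The sort took AΦ as cells with CD64, high CD11c and low CD11b, and monocytes as cells with high CD11b and little CD64 and without MHC II and Ly6G. Both were sorted as cells with CD45.1 or CD45.2, the forms of the leukocyte antigen, and no epithelial antigen was named in these gates.

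The surfactant is a film of lipid and protein that keeps alveoli open. It is made by alveolar type II cells, which synthesise Sftpb and Sftpc as precursors, cut them to small hydrophobic peptides that spread the lipid, and store them in lamellar bodies. Sftpa1 and Sftpd encode collectins, collagen-like lectins that bind microbes and particles and hand them to phagocytes. Scgb1a1 and Scgb3a2 encode secretoglobins, small secreted proteins of club cells in the airway wall, and some secretory cells at the entrance of alveoli make both kinds of protein. Alveolar macrophages take up spent surfactant and break it down, and the growth factor GM-CSF is needed for that task. They are textbook users of these proteins rather than sources of their transcripts.

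All 6 genes are protein coding, and in the GENCODE annotation of mm10 none of them overlapped another gene. Sftpc (ENSMUSG00000022097.3) lies at chr14:70520941-70524081 on the minus strand. Sftpa1 (ENSMUSG00000021789.14) lies at chr14:41131782-41136452 on the plus strand, and Sftpd (ENSMUSG00000021795.9) at chr14:41172212-41185198 on the minus strand. The end of Sftpa1 and the start of Sftpd are 35760 bases apart, so both collectin genes share a cluster. Sftpb (ENSMUSG00000056370.15) lies at chr6:72304610-72314371 on the plus strand and Scgb1a1 (ENSMUSG00000024653.2) at chr19:9083636-9087958 on the minus strand. Scgb3a2 is ENSMUSG00000038791.14 in the files.

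Upstream sequences could be read for 2 of the 6 genes, Sftpb and Sftpa1, from the RefSeq table of GRCm38.p6. They are printed because in type II and club cells these genes are switched on by the factors Nkx2-1 and Foxa, whose own transcripts in the sorted cells are given further on. Each line holds the 250 bases before the RefSeq start of the gene on the plus strand, at chr6:72304360-72304609 for Sftpb and at chr14:41131538-41131787 for Sftpa1, whose RefSeq start lies a few bases inside the GENCODE gene. Capitals mark matches to the letters CTCAAG, the core of Nkx2-1 sites, to TGTTTGC or TGTTTAC, written for Foxa sites, and to TATAAA, the TATA box, searched on both strands.
Sftpb: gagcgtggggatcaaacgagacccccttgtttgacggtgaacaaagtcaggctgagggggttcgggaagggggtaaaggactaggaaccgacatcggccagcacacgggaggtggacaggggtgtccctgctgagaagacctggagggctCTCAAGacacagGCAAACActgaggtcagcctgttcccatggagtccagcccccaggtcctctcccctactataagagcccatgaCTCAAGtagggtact
Sftpa1: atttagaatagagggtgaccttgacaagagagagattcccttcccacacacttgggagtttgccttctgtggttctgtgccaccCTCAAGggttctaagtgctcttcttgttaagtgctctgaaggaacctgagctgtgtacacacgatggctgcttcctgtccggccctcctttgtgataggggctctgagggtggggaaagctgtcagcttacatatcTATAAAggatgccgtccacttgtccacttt
Sftpb held CTCAAG at 2 places, starting at -100 and -15 from the RefSeq start of the gene, and TGTTTGC on the other strand starting at -88. Sftpa1 held CTCAAG from -166 and TATAAA from -30, and no match overlapped another. Of 32851 promoter windows in the table, 13.3% held CTCAAG, 4.30% TGTTTGC, 3.17% TGTTTAC and 12.4% TATAAA. Matches of such short letters are a description of the sequence and say nothing of binding in these cells.

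Values are FPKM, fragments per kilobase of transcript, scaled to the mapped fragments of the library, so levels of different genes can be set side by side per length. Tests used limma on log2(FPKM + 1), a scale that understates the change of low genes, with Benjamini-Hochberg adjustment over all genes tested and a threshold of 0.05 for the adjusted p. A value of exactly 0 can be a failed estimate and is described as listed at 0. The methods name a read number for the sequencing as a whole but not the depth of each library. The even spacing of low values gave the relative depth of the libraries, which spanned 3.17-fold from the shallowest to the deepest. In a library of median depth a single fragment was worth about 0.328 FPKM of Sftpc and 0.915 FPKM of Scgb1a1, the gene with the shorter transcript. These conversions were made after the values were seen, are approximate, and cover counting error only.

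Sftpc encodes the peptide that marks type II cells. In TR-AΦ at 4-weeks its values in replicates 0, 1 and 2 were 3.17, 5.33 and 5.12 FPKM with FA and 9.49, 8.86 and 15.7 FPKM with PM2.5. In TR-AΦ at 32-weeks they were 7.90, 0.587 and 15.1 FPKM with FA and 3.86, 4.65 and 13.4 FPKM with PM2.5. In BM-AΦ at 32-weeks they were 1.74, 2.10 and 8.83 FPKM with FA and 0.347, 0 and 0.745 FPKM with PM2.5. The BM-AΦ of PM2.5 exposed mice were thus the lowest AΦ group, and those 3 libraries rest on about 1, 0 and 3 fragments, against 8, 13 and 30 fragments in the BM-AΦ of FA exposed mice.

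In monocytes at 4-weeks Sftpc was 5.52, 1.08 and 1.51 FPKM with FA and 4.09, 5.19 and 2.24 FPKM with PM2.5. In monocytes 1 at 32-weeks it was 18.1, 4.96 and 19.0 FPKM with FA and 21.5, 2.58 and 17.3 FPKM with PM2.5. In monocytes 2 at 32-weeks it was 0, 18.5 and 29.9 FPKM with FA and 19.8, 1.53 and 24.7 FPKM with PM2.5. The 12 monocyte libraries of 32-weeks fell into 8 between 17.3 and 29.9 FPKM and 4 between 0 and 4.96 FPKM, and each of the 4 groups had libraries on both sides. The SD of a group therefore came to between 7.85 and 15.1 FPKM around means of 13.8 to 16.1 FPKM.

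Ordered by their means, the 4 groups of monocytes at 32-weeks were highest in Sftpc, from 16.1 ± 15.1 FPKM (SD, n = 3) in monocytes 2 with FA to 13.8 ± 9.94 FPKM (SD, n = 3) in monocytes 1 with PM2.5. Next came TR-AΦ with PM2.5 at 4-weeks at 11.4 ± 3.80 FPKM (SD, n = 3), TR-AΦ at 32-weeks at 7.87 ± 7.26 FPKM with FA and 7.31 ± 5.31 FPKM with PM2.5 (SD, n = 3 each), and TR-AΦ with FA at 4-weeks at 4.54 ± 1.19 FPKM (SD, n = 3). They were followed by BM-AΦ with FA at 4.22 ± 3.99 FPKM, and by monocytes at 4-weeks at 3.84 ± 1.49 FPKM with PM2.5 and 2.70 ± 2.45 FPKM with FA (SD, n = 3 each). BM-AΦ with PM2.5 came last at 0.364 ± 0.373 FPKM (SD, n = 3). Every group overlapped its neighbour in this order except the last pair, where the highest BM-AΦ with PM2.5 stood below the lowest monocytes of 4-weeks with FA.

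**Figure D1:**
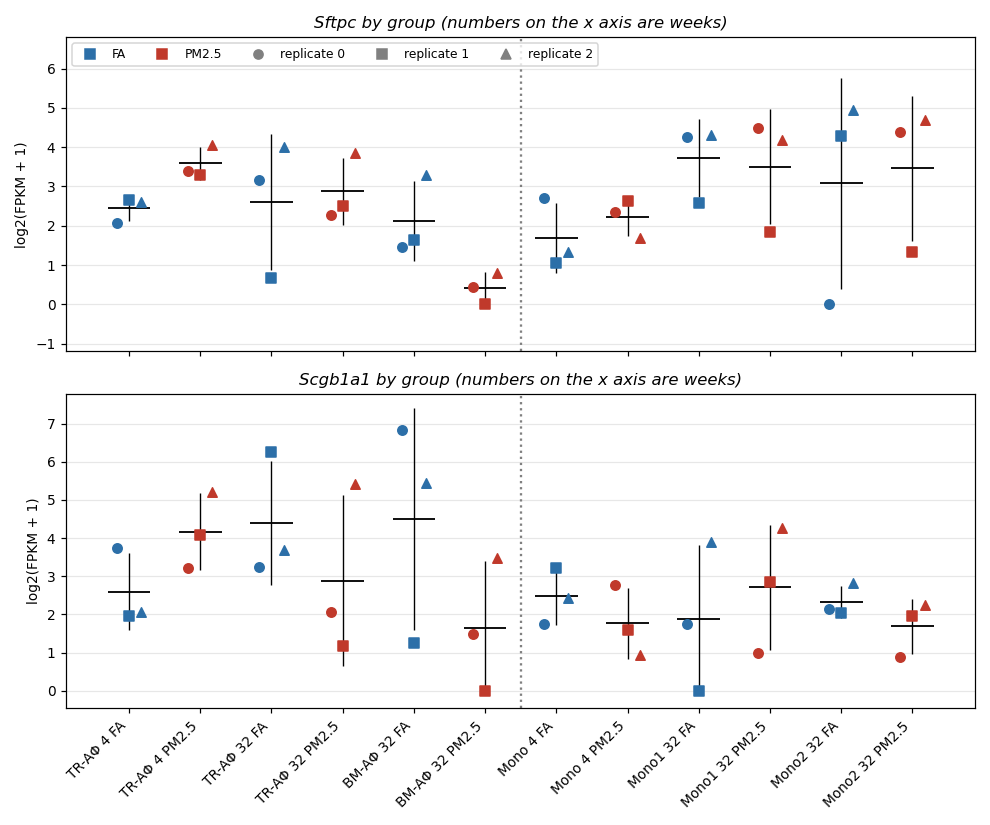
log2(FPKM + 1) of Sftpc and Scgb1a1 by group, 1 symbol per library (circle, replicate 0; square, replicate 1; triangle, replicate 2), with the mean (horizontal bar) and SD (vertical line) of each group of 3 on that scale. Sftpc is highest in monocytes at 32-weeks (up to 29.9 FPKM) and lowest in BM-AΦ with PM2.5 (at most 0.745 FPKM), while the highest Scgb1a1 values, 112 and 76.1 FPKM, are in AΦ with FA at 32-weeks.

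Scgb1a1 encodes the main secreted protein of club cells. In TR-AΦ at 4-weeks it was 12.5, 2.88 and 3.16 FPKM with FA and 8.24, 16.1 and 35.96 FPKM with PM2.5. In TR-AΦ at 32-weeks it was 8.54, 76.1 and 11.9 FPKM with FA and 3.19, 1.24 and 41.8 FPKM with PM2.5. In BM-AΦ at 32-weeks it was 112, 1.38 and 42.2 FPKM with FA and 1.82, 0 and 10.1 FPKM with PM2.5. A single library raised the mean in several groups, since in BM-AΦ with FA the library at 112 FPKM was about 181 fragments and the one at 1.38 FPKM about 3.

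In monocytes Scgb1a1 reached at most 18.3 FPKM. At 4-weeks it was 2.37, 8.37 and 4.40 FPKM with FA and 5.84, 2.01 and 0.912 FPKM with PM2.5. At 32-weeks monocytes 1 had 2.36, 0 and 13.8 FPKM with FA and 1.001, 6.26 and 18.3 FPKM with PM2.5. Monocytes 2 at 32-weeks had 3.43, 3.11 and 6.02 FPKM with FA and 0.829, 2.87 and 3.75 FPKM with PM2.5. Over the 18 AΦ libraries the mean was 21.6 FPKM and over the 18 monocyte libraries 4.76 FPKM, while for Sftpc these means were 5.94 FPKM and 11.0 FPKM. The groups ran from 52.0 ± 56.1 FPKM (SD, n = 3) in BM-AΦ with FA to 2.48 ± 1.497 FPKM (SD, n = 3) in monocytes 2 with PM2.5, and every group overlapped its neighbour in this order.

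Scgb3a2, the other secretoglobin, was listed at 0 in 32 libraries, among them all 18 monocyte libraries. It was above 0 in 4 AΦ libraries, at 3.54 FPKM in replicate 0 of BM-AΦ with FA, 1.55 FPKM in replicate 2 of TR-AΦ with FA at 4-weeks, 0.964 FPKM in replicate 2 of TR-AΦ with PM2.5 at 4-weeks and 0.948 FPKM in replicate 2 of TR-AΦ with PM2.5 at 32-weeks. These values stand for about 6, 2, 1 and 1 fragments. The highest was in the library that was also highest in Scgb1a1, and 3 of the 4 libraries had at least 35.96 FPKM of Scgb1a1, the exception being TR-AΦ with FA at 4-weeks with 3.16 FPKM.

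Sftpa1 was above 1 FPKM in some libraries of both cell types. Its highest values were 3.42 FPKM in replicate 2 of monocytes 2 with FA at 32-weeks, 2.72 FPKM in replicate 1 of TR-AΦ with PM2.5 at 4-weeks and 2.65 FPKM in replicate 1 of monocytes with PM2.5 at 4-weeks. It was listed at 0 in 5 libraries, and group means ran from 1.73 ± 1.71 FPKM (SD, n = 3) in monocytes 2 with FA at 32-weeks to 0.152 ± 0.163 FPKM (SD, n = 3) in BM-AΦ with PM2.5. The BM-AΦ with PM2.5 were the lowest group for Sftpa1 as they were for Sftpc, and neighbours overlapped throughout the order.

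Sftpb, whose peptide is indispensable for breathing, was above 1 FPKM in 2 libraries, at 1.10 FPKM in replicate 0 of monocytes 1 with FA at 32-weeks and at 1.07 FPKM in replicate 0 of TR-AΦ with PM2.5 at 4-weeks. It was listed at 0 in 11 libraries. Its group means ran from 0.703 ± 0.395 FPKM (SD, n = 3) in TR-AΦ with PM2.5 at 4-weeks to 0.0712 ± 0.123 FPKM (SD, n = 3) in BM-AΦ with PM2.5. Sftpd, the other collectin, was listed at 0 in 18 libraries, reached 1.13 FPKM in replicate 2 of monocytes 1 with PM2.5 at 32-weeks, and was listed at 0 in all 3 libraries of BM-AΦ with PM2.5 and of monocytes with FA at 4-weeks.

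**Figure D2:**
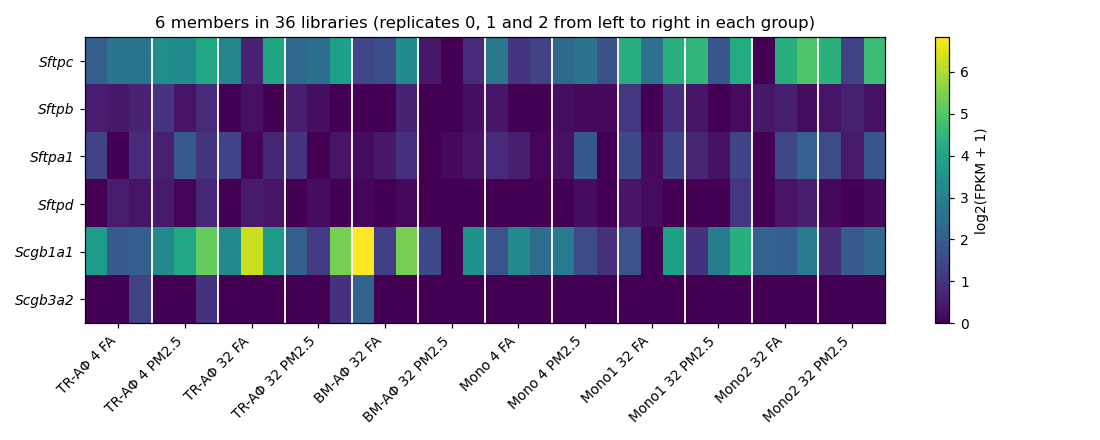
log2(FPKM + 1) of the 6 genes in the 36 libraries as colours, with replicates 0, 1 and 2 from left to right in each of 12 groups. Scgb1a1 and Sftpc have the highest values, Scgb3a2 is above 0 in 4 AΦ libraries, and replicate 1 of BM-AΦ with PM2.5 is at 0 for every gene but Sftpa1, which is at 0.132 FPKM.

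Together the 6 genes summed to between 0.132 FPKM, in replicate 1 of BM-AΦ with PM2.5, and 118 FPKM, in replicate 0 of BM-AΦ with FA. All genes of a library summed to between 1839577 and 3339020 FPKM. After the filter on a mean of at least 1 FPKM, Sftpc and Scgb1a1 could be tested in AΦ and in the model of all libraries, and Sftpc, Scgb1a1 and Sftpa1 in monocytes. Sftpb, Sftpd and Scgb3a2 did not pass the filter in any model, so no result is given for them in the tested comparisons unless stated. In all, 35 tests of single genes were made in 15 comparisons, and 1 passed the threshold.

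The study was made to learn what PM2.5 does to AΦ and monocytes. In TR-AΦ at 4-weeks all 3 libraries with PM2.5 stood above all 3 with FA for Sftpc, by 1.14 on the log2 scale (SE 0.707, 95% confidence interval -0.37 to 2.66, adjusted p = 1). Scgb1a1 differed by 1.58 on that scale (adjusted p = 1), and its groups overlapped. Neither gene passed the test, and over all 12665 genes tested 0.0079% did. Genes with every PM2.5 library above every FA library made up 2.31% of those tested.

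In BM-AΦ at 32-weeks the order was the opposite, with all 3 libraries with PM2.5 below all 3 with FA for Sftpc. The difference was -1.72 on the log2 scale (SE 0.707, 95% confidence interval -3.23 to -0.20), with an unadjusted p of 0.029 and an adjusted p of 1 in limma. For Scgb1a1 the difference was -2.85 on that scale (unadjusted p = 0.0638, adjusted p = 1 in limma), with overlapping groups. Of all genes 0.0158% passed in this comparison, and 3.66% had every PM2.5 library below every FA library. With 3 against 3 libraries an exact two-sided permutation test cannot go below 0.1, and of 36 such tests of the 6 genes in the 6 exposure comparisons these 2 differences of Sftpc were the ones at that p. Among 36 tests some can reach a p of 0.1 with no effect of exposure, and these p were not adjusted.

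In TR-AΦ at 32-weeks the groups of FA and PM2.5 overlapped for both genes. Sftpc differed by 0.27 and Scgb1a1 by -1.52 on the log2 scale (adjusted p = 1 each), and 0% of all genes passed, with 396 genes at an unadjusted p under 0.05 in limma. The interaction of exposure with time in TR-AΦ, the difference at 32-weeks minus that at 4-weeks, was -0.87 for Sftpc and -3.10 for Scgb1a1 (adjusted p = 1 each), where 0.0079% of all genes passed. The interaction of exposure with origin at 32-weeks, BM-AΦ minus TR-AΦ, was -1.98 for Sftpc (adjusted p = 1) and -1.33 for Scgb1a1 (adjusted p = 1), where 0.0158% of all genes passed. These contrasts share their control libraries with the comparisons above.

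In monocytes exposure moved none of the 3 genes tested past the threshold. At 4-weeks the differences were 0.53 for Sftpc, -0.70 for Scgb1a1 and 0.23 for Sftpa1 on the log2 scale (adjusted p = 1 each), and 0.00778% of all genes passed. In monocytes 1 at 32-weeks they were -0.21, 0.83 and -0.23 in the same order of genes (adjusted p = 1 each). In monocytes 2 they were 0.39, -0.64 and 0.09 (adjusted p = 1 each). In both of the latter comparisons 0% of all genes passed limma's test, with 609 genes in monocytes 1 and 547 in monocytes 2 at an unadjusted p under 0.05.

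**Figure D3:**
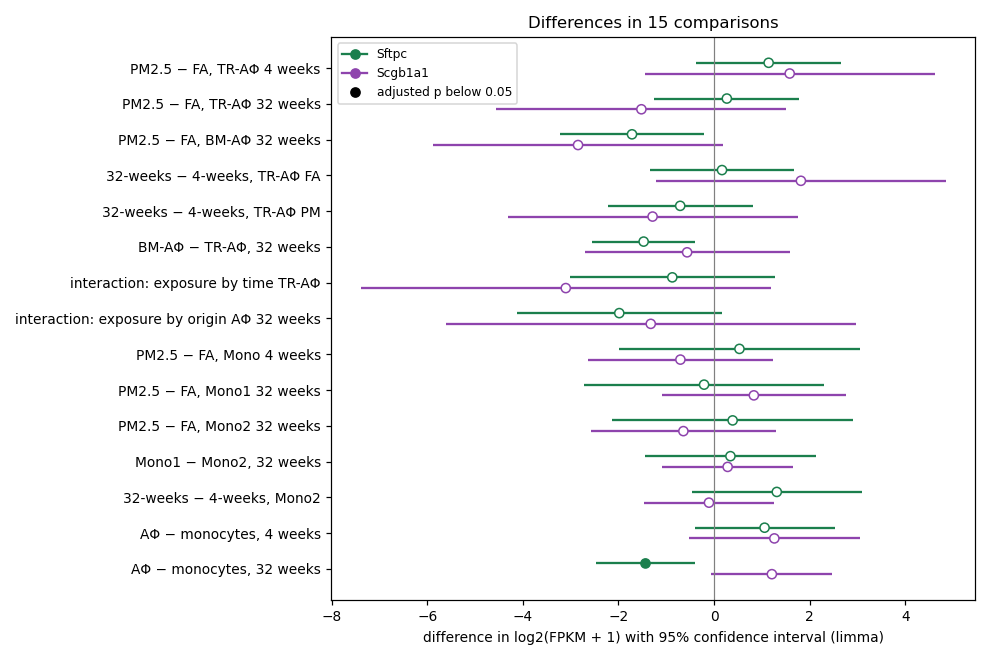
Differences in log2(FPKM + 1) of Sftpc (green) and Scgb1a1 (purple) with 95% confidence intervals from limma in 15 comparisons, where filled points have an adjusted p below 0.05. The 1 filled point is Sftpc in AΦ against monocytes at 32-weeks, with an interval of -2.47 to -0.40.

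The groups of BM-AΦ and TR-AΦ at 32-weeks were compared over both exposures. Sftpc was 2.29 ± 3.30 FPKM (SD, n = 6) in BM-AΦ and 7.59 ± 5.70 FPKM (SD, n = 6) in TR-AΦ, a difference of -1.47 on the log2 scale (SE 0.500, 95% confidence interval -2.54 to -0.40, unadjusted p = 0.0105, adjusted p = 0.383 in limma). Most of it lay in the PM2.5 groups. Mean log2(FPKM + 1) was 2.13 in BM-AΦ and 2.61 in TR-AΦ with FA, and 0.411 and 2.88 with PM2.5. The libraries of BM-AΦ with PM2.5 held about 0 to 3 fragments each. Scgb1a1 differed by -0.56 on that scale (adjusted p = 0.967). Neither passed, against 0.316% of all genes. Of 14 alveolar macrophage genes tested 1 was lower in BM-AΦ and of 11 monocyte genes tested 1 was higher.

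Time was tested in TR-AΦ and in monocytes. In TR-AΦ with FA the 32-weeks libraries differed from those of 4-weeks by 0.17 in Sftpc (adjusted p = 0.973) and by 1.82 in Scgb1a1 (adjusted p = 0.657) on the log2 scale, and 0.782% of all genes passed. In TR-AΦ with PM2.5 the differences were -0.71 in Sftpc (adjusted p = 0.691) and -1.29 in Scgb1a1 (adjusted p = 0.723), and 1.05% of all genes passed (25.6% of them higher at 32-weeks, 8.64% after scaling of all libraries to equal sums, TPM). In monocytes 2 against the monocytes of 4-weeks Sftpc differed by 1.31 (adjusted p = 0.343), Sftpa1 by 0.63 (adjusted p = 0.392) and Scgb1a1 by -0.11 (adjusted p = 0.948), with 14.9% of all genes past the threshold (47.4% of them higher at 32-weeks, 67.7% with TPM scaling). Monocytes 1 minus monocytes 2 at 32-weeks came to 0.34 in Sftpc (adjusted p = 0.953), 0.28 in Scgb1a1 (adjusted p = 0.95) and -0.32 in Sftpa1 (adjusted p = 0.899), where 0.669% of all genes passed.

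The comparison of cell types held the only member past the threshold. At 32-weeks Sftpc was 4.94 ± 5.23 FPKM (SD, n = 12) in AΦ and 14.8 ± 9.93 FPKM (SD, n = 12) in monocytes. It was lower in AΦ by -1.44 on the log2 scale (SE 0.504, 95% confidence interval -2.47 to -0.40, adjusted p = 0.0156), and the groups overlapped, since 4 monocyte libraries stood at or below 4.96 FPKM. This test averaged BM-AΦ with TR-AΦ and monocytes 1 with monocytes 2. Mean log2(FPKM + 1) was 2.13 with FA and 0.411 with PM2.5 in BM-AΦ, beside 3.72 and 3.51 in monocytes 1. In TR-AΦ it was 2.61 and 2.88, beside 3.08 and 3.46 in monocytes 2. The gap was thus widest for BM-AΦ with PM2.5, and no origin was tested alone. Scgb1a1 was 25.9 ± 35.97 FPKM (SD, n = 12) in AΦ and 5.14 ± 5.51 FPKM (SD, n = 12) in monocytes, a difference of 1.21 (SE 0.615, 95% confidence interval -0.06 to 2.47, adjusted p = 0.0922) that did not pass. In this comparison 61% of all 13307 genes passed, so that a call for 1 of 2 members is no more than the share among genes at large. Of the genes past the threshold 51.9% were higher in AΦ, and 67.9% with TPM, which moved the median of all genes by 0.19. On that scale Sftpc was lower in AΦ by -0.995 (adjusted p = 0.029 in limma), beside a median of 0.21 over all genes.

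Some markers of further lung cells were also lower in AΦ at 32-weeks, as were 3908 of all 13307 genes tested. At 32-weeks 4 of 5 fibroblast genes tested were lower in AΦ (3 with TPM), with a median of -0.66 on the log2 scale beside 0.02 over all genes. Inmt, a methyltransferase of lung fibroblasts, was lower by -1.61 (SE 0.401, adjusted p = 0.00105) and Mgp, matrix Gla protein, by -1.56 (SE 0.360, adjusted p = 5e-04). Of 5 endothelial genes tested 4 were lower in AΦ and 1 was higher, with a median of -0.93. Other lists went otherwise. Among alveolar type I cell genes Akap5 was higher by 2.14, Hopx was lower by -2.69 and Emp2 did not pass. The ciliated cell gene Tppp3 did not pass (0.38, adjusted p = 0.0587 in limma), but it passed as higher in AΦ with quantile normalization (0.38) and with TPM (0.65). All general epithelial genes tested were higher. At 4-weeks Inmt differed by -0.26 (adjusted p = 0.741) and Mgp by 0.36 (adjusted p = 0.598). Of 5 endothelial genes 1 was lower then, Pecam1 by -3.48. The 10 fibroblast genes summed to 20.4 to 30.4 FPKM in AΦ and 18.9 to 69.1 FPKM in monocytes at 32-weeks, and the 10 endothelial genes to 12.4 to 39.1 FPKM and 14.7 to 52.3 FPKM. The part of these cells in the difference of Sftpc was not tested.

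At 4-weeks neither gene passed between cell types, where 48.2% of all genes did. Of these 47% were higher in AΦ, and 66.6% with TPM. Sftpc was 7.95 ± 4.50 FPKM (SD, n = 6) in AΦ and 3.27 ± 1.92 FPKM (SD, n = 6) in monocytes, a difference of 1.06 (SE 0.713, 95% confidence interval -0.41 to 2.52, adjusted p = 0.234). In a model of only the libraries compared, Sftpc did pass as higher in AΦ at 4-weeks. Scgb1a1 was 13.1 ± 12.3 FPKM (SD, n = 6) in AΦ and 3.98 ± 2.79 FPKM (SD, n = 6) in monocytes, a difference of 1.26 (SE 0.870, adjusted p = 0.245). The change of the cell type difference from 4-weeks to 32-weeks, a contrast added after the values were seen, was -2.49 for Sftpc (SE 0.873, unadjusted p = 0.00834, adjusted p = 0.0873 in limma) and -0.05 for Scgb1a1 (adjusted p = 0.987). Of AΦ, its 4-weeks side held TR-AΦ only and its 32-weeks side TR-AΦ and BM-AΦ. Of monocytes, its 4-weeks side held host cells only, by the paper, and its 32-weeks side monocytes 1 and monocytes 2. Time and the mix of origins cannot be told apart in this contrast. In bulk samples a smaller share of cells with a transcript and less transcript per cell cannot be told apart.

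Some of these values moved with the replicate number at 32-weeks. Sftpc was highest in replicate 2 in 7 of 8 groups, and the medians over the 8 groups were 5.88 FPKM for replicate 0, 2.34 FPKM for replicate 1 and 16.2 FPKM for replicate 2. Scgb1a1 was highest in replicate 2 in 6 of 8 groups and Sftpa1 in 5 of 8. The 7 red cell genes (globins and others) moved the same way, summing to 17.7 to 85.8 FPKM in replicate 2, to 0 to 10.3 FPKM in replicate 0 and to 0 to 19.5 FPKM in replicate 1, so that replicate 2 was highest in 8 of 8 groups, and the part of red cells in the values of the members was not tested. At 4-weeks the red cell sum was lowest in replicate 2 in 4 of 4 groups, and Sftpc was highest there in 1 of 4.

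In limma with a term for the replicate number, Sftpc gave an unadjusted p of 0.0453 and an adjusted p of 0.14 at 32-weeks, and Scgb1a1 an adjusted p of 0.243. No member passed, while 16.9% of all genes did. At 4-weeks 0.0925% of all genes passed, and the adjusted p was 0.963 for Sftpc and 0.993 for Scgb1a1. What the replicate number stands for is not given in the sources used here, and its part in the values of the members was not tested.

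**Figure D4:**
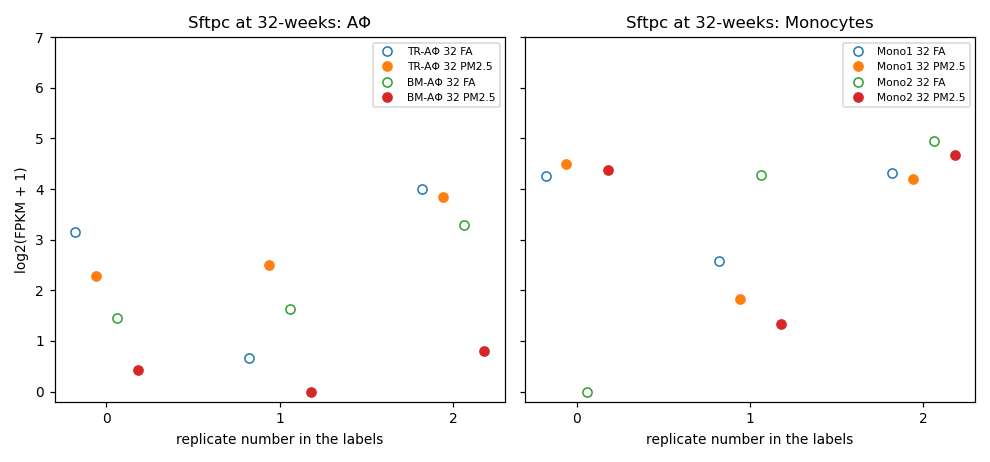
log2(FPKM + 1) of Sftpc at 32-weeks by replicate number in AΦ (left) and monocytes (right), 1 point per library, open for FA and filled for PM2.5, with a colour for each group. In 7 of the 8 groups the point of replicate 2 is the highest.

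Across libraries of 1 cell type, Sftpc and Sftpa1 varied together most clearly in monocytes. Over the 18 monocyte libraries Pearson's r of log2(FPKM + 1) was 0.81 and Spearman's rho 0.79, and r was 0.83 for deviations from group means and 0.75 without the 2 libraries farthest from the median of Sftpc. Over the 18 AΦ libraries the same measures were 0.51 and 0.50, with 0.25 for deviations. For Sftpc and Scgb1a1 r was 0.31 in AΦ (0.48 with a pseudocount of 0.1) and 0.05 in monocytes. These are descriptions out of 25 pairs of members, and the depth of a library sets the precision of its low values of every gene.

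Of the other genes of alveolar type II cells, 12 were listed and 7 had a mean below 1 FPKM, 3 of them in every library. Lamp3, of lamellar bodies, had means of 0.447 FPKM in AΦ and 0.396 FPKM in monocytes, and Slc34a2, a phosphate transporter of type II cells, 0.245 and 0.391 FPKM. The 4 highest of the list had means of 2.05 FPKM or more in both cell types. Dram1 had a mean of 49.6 FPKM in AΦ and 27.5 FPKM in monocytes, Napsa, a protease that trims Sftpb and Sftpc, 5.57 and 39.2 FPKM, Abca3, the lipid pump of lamellar bodies, 10.6 and 12.5 FPKM, and Lpcat1, an enzyme of surfactant lipid, 2.05 and 9.62 FPKM. The list summed to between 56.7 and 85.3 FPKM in AΦ and between 67.9 and 115 FPKM in monocytes, and its part in the values of the members was not tested.

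Between cell types, 5 genes of this list were tested. At 32-weeks 1 was higher in AΦ, 3 were lower and 1 did not pass, with a median of -1.49 on the log2 scale beside 0.02 over all genes. At 4-weeks 1 was higher and 4 were lower, with a median of -0.93 beside -0.02 over all genes. Napsa was lower in AΦ at 32-weeks, by -2.37 (SE 0.120, adjusted p = 1.4e-15), and so was Lpcat1, by -2.00 (SE 0.128, adjusted p = 1.88e-13), while Dram1 was higher by 1.05 (SE 0.120, adjusted p = 1.94e-08).

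**Figure D5:**
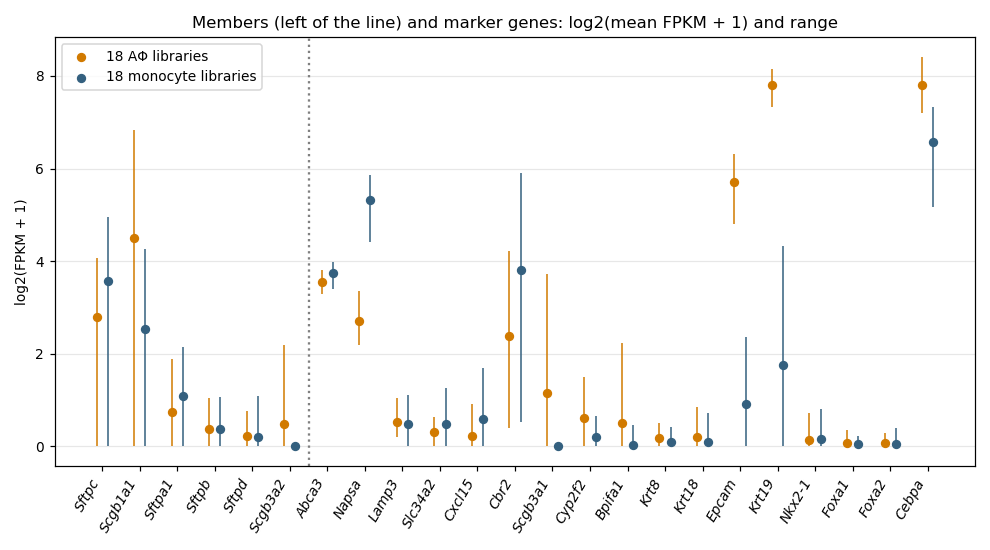
log2(mean FPKM + 1) of the 6 genes, left of the dotted line, and of marker genes and transcription factors, right of it, in 18 AΦ and 18 monocyte libraries, with lines from the lowest to the highest library. Krt19 at 222 FPKM in AΦ and Napsa at 39.2 FPKM in monocytes stand far above Lamp3, Slc34a2 and Nkx2-1, whose means are below 1 FPKM in both.

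Club cell genes were sparse. Of 11 listed genes with a value 10 had a mean below 1 FPKM. Scgb3a1, a further secretoglobin, was listed at 0 in all 18 monocyte libraries and in 13 AΦ libraries, with a mean of 1.22 FPKM in AΦ and a highest value of 12.2 FPKM. Cyp2f2, a cytochrome of club cells, had means of 0.526 FPKM in AΦ and 0.155 FPKM in monocytes, and was listed at 0 in 3 AΦ and 9 monocyte libraries. Cbr2, a carbonyl reductase, was the exception, with 4.205 FPKM in AΦ and 13.0 FPKM in monocytes, and at 32-weeks it was lower in AΦ by -1.74 on the log2 scale (SE 0.349, adjusted p = 9.71e-05). The club list summed to between 0.786 and 25.0 FPKM in AΦ and between 0.442 and 62.4 FPKM in monocytes. Monocytes 2 at 32-weeks held 18.8 to 62.4 FPKM and monocytes 1 held 1.43 to 7.53 FPKM. Cbr2 is part of this sum and so stood at or below 7.53 FPKM in monocytes 1 at 32-weeks. The part of this list in the values of the members was not tested.

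General epithelial genes fell into a high and a low set. Krt19, Epcam and Cdh1 were at 222, 51.2 and 21.5 FPKM in AΦ and at 2.39, 0.887 and 1.13 FPKM in monocytes, and all 3 were higher in AΦ at both times. The keratins Krt8 and Krt18, the pair of simple epithelia, had means of 0.127 and 0.142 FPKM in AΦ and 0.0623 and 0.0724 FPKM in monocytes. Of the 13 genes 8 were below 1 FPKM in every library. Nkx2-1, the factor whose letters are in capitals upstream of Sftpb and Sftpa1, had means of 0.0999 FPKM in AΦ and 0.113 FPKM in monocytes, with a highest value of 0.744 FPKM, and was listed at 0 in 22 libraries. Foxa1 and Foxa2 had means below 0.05 FPKM in both cell types, whereas Cebpa, a factor that macrophages share with type II cells, was at 224 FPKM in AΦ and 94.6 FPKM in monocytes.

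The labelled cell types bore their own genes. The 14 alveolar macrophage genes with a value summed to 7359 to 15357 FPKM in AΦ and to 293 to 1847 FPKM in monocytes, and 14 of 14 were higher in AΦ at 32-weeks and 13 of 14 at 4-weeks. The 12 monocyte genes summed to 158 to 681 FPKM in AΦ and 2232 to 6378 FPKM in monocytes. A library that stood apart was replicate 1 of monocytes 2 with PM2.5 at 32-weeks, whose macrophage genes summed to 1847 FPKM where the next monocyte library had 972 FPKM. Without it, a choice made after this sum was seen, Sftpc was lower in AΦ at 32-weeks by -1.70 (adjusted p = 0.00358 in limma). Neutrophil genes summed to 408 FPKM in replicate 2 of monocytes with FA and 1156 FPKM in replicate 2 with PM2.5 at 4-weeks, against 33.1 to 123 FPKM in the other 16 monocyte libraries, and without both libraries, a choice made after these sums were seen, Sftpc at 4-weeks was 0.83 higher in AΦ (adjusted p = 0.449 in limma).

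Genes for handling surfactant set the transcripts of its proteins in context. Of 22 genes for uptake and breakdown that were tested, 16 were higher and 5 lower in AΦ at 32-weeks, with a median of 0.86 on the log2 scale beside 0.02 over all genes. At 4-weeks 12 were higher and 5 lower, with a median of 0.80. Of all genes 61% passed at 32-weeks and 48.2% at 4-weeks. With TPM 17 were higher and 4 lower at 32-weeks, and 13 were higher and 3 lower at 4-weeks. Pparg, Marco and Fabp4 are also among the alveolar macrophage genes. Abcg1, which exports cholesterol from macrophages, had a mean of 618 FPKM in AΦ and 47.1 FPKM in monocytes and was higher by 3.88 at 32-weeks (SE 0.138, adjusted p = 9.95e-19). Sirpa, a receptor of surfactant collectins, had a mean of 482 FPKM in AΦ and 233 FPKM in monocytes and was higher by 1.196 (SE 0.0980, adjusted p = 3.03e-11). Calr, calreticulin, which relays collectin signals at the cell surface, was at 309 and 183 FPKM and was higher by 0.78 (SE 0.112, adjusted p = 9.08e-07).

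Of 12 genes for processing and transport of surfactant proteins that were tested, 2 were higher and 6 lower in AΦ at either time. This called share was near that of all genes at 32-weeks (61%) and above that at 4-weeks (48.2%). With quantile normalization 4 were higher and 6 lower at 4-weeks, and with TPM 2 were higher and 5 lower. Itm2b, which shares the BRICHOS fold with the Sftpc precursor, was at 647 FPKM in AΦ and 673 FPKM in monocytes, and its difference of -0.07 at 32-weeks did not pass (adjusted p = 0.429). Ctsh, cathepsin H, which trims the precursors of Sftpb and Sftpc, was 0.29 higher in AΦ at 4-weeks (adjusted p = 0.00604) and lower by -0.23 at 32-weeks (adjusted p = 0.0017), a direction that turned with TPM. Colec12, a scavenger receptor of the collectin family, was the single tested gene among other collectins and secretoglobins, and was higher in AΦ by 1.48 at 4-weeks and by 1.69 at 32-weeks (adjusted p = 0.00137 and 2.37e-06 in limma). No gene of any of the 16 other lists passed between PM2.5 and FA in any cell population or time, where at most 0.0158% of all genes did. The lists were chosen with earlier results of these data known and are a background to the members only.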

How the data were processed

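RNA of sorted AΦ and monocytes was sequenced in 36 libraries in 12 groups of 3, from 3 mice of each exposure and time, so groups can share mice. The authors trimmed reads with TrimGalore, aligned them to mm10 with STAR, and with Cufflinks and GENCODE genes computed the deposited FPKM, 1 value per gene and library. No counts were analysed here, so the depth of each library is known only relatively, from the spacing of low values.

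Groups came from the labels. The tests ran limma 3.58.1 (R 4.3.3) on log2(FPKM + 1), fitting each group mean and a variance trend. A gene entered a model when its FPKM averaged 1 or more there, which admitted 12665 genes in AΦ, 12856 in monocytes and 13307 in both. The scripts were tested on simulated data. Exact permutation tests used SciPy 1.17.1, and figures matplotlib 3.10.9 in Python 3.11.15. Libraries were treated as unpaired, because in 0 of 18 pairs of groups every correlation of same-numbered libraries was over 0.1 (range -0.087 to 0.209). These were correlations of deviations from group means. This rule does not exclude deviations that same-numbered libraries share in part. For the replicate number at 32-weeks 16.9% of all genes passed in limma.

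The members and lists were chosen with earlier results of these data known. Besides the members, up to 4 genes with the highest mean FPKM of each list were named, and others, such as Lamp3, Slc34a2, Krt8, Krt18, Scgb3a1, Cyp2f2, Nkx2-1, Foxa1 and Foxa2, as defining markers chosen after their values were seen. Alternatives were a pseudocount of 0.1, no filter, TPM scaling, quantile normalization, only the libraries compared, a replicate block, and leaving out each library. Contrasts and left-out libraries chosen after seeing the data are named as such. The result for 1 gene is not reported here.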

Additional observations from a re-analysis of the deposited data

Results flagged for a closer look

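The difference of Sftpc between PM2.5 and FA had opposite signs in TR-AΦ at 4-weeks and BM-AΦ at 32-weeks. In TR-AΦ at 4-weeks all 3 libraries with PM2.5 were above all 3 with FA, by 1.14 on the log2(FPKM + 1) scale. Such an order was found in 2.31% of all genes tested. In BM-AΦ at 32-weeks all 3 libraries with PM2.5 were below, at -1.72, as in 3.66% of all genes tested. These 3 libraries held about 1, 0 and 3 fragments of Sftpc. A contrast of both differences of Sftpc, chosen after the values were seen, was -2.86 (unadjusted p = 0.0125, adjusted p = 1 over all genes in limma), so it did not pass the threshold. In TR-AΦ at 32-weeks, which shares its origin with the first group and its time with the second, the difference was 0.27 and the groups overlapped.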

How the results depend on the processing

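Sftpc remained lower in AΦ than in monocytes at 32-weeks under every alternative tried, with an adjusted p (limma) between 0.000608 and 0.0389 over left-out libraries, 0.0379 with a pseudocount of 0.1, 0.0408 with only the libraries compared, 0.029 without the filter, 0.029 with TPM scaling, 0.0192 with quantile normalization and 0.00808 with the replicate block. The number of members past the threshold there was 2 with TPM scaling and 1 to 2 over left-out libraries, Scgb1a1 being added with TPM scaling (1.27, adjusted p = 0.0311), without replicate 1 of BM-AΦ with FA (1.62, adjusted p = 0.0142) and without replicate 2 of monocytes 1 with FA (1.46, adjusted p = 0.0427). Between cell types at 4-weeks 1 member passed without the filter (Sftpb) and 1 with only the libraries compared (Sftpc, adjusted p = 0.015 in limma), against 0. Both were higher in AΦ, for Sftpc the opposite of the direction at 32-weeks. For the replicate number at 32-weeks 0 to 1 members passed over left-out libraries, 1 without replicate 1 of TR-AΦ with FA or replicate 0 or 1 of monocytes 2 with FA. The replicate block changed no call of a member. TPM scaling moved the median of all genes by 0.19 between cell types at either time, by 0.13 for exposure in monocytes at 4-weeks and by -0.11 for monocytes 1 against 2.

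With a pseudocount of 0.1 the difference of Sftpc between 32-weeks and 4-weeks in TR-AΦ with FA was -0.049 and that of Scgb1a1 between monocytes 1 and 2 was -0.12. Over left-out libraries these 2 ran from -0.53 to 1.14 and from -0.22 to 0.75. The sign also changed over left-out libraries for PM2.5 against FA in TR-AΦ at 32-weeks (Sftpc, -0.71 to 0.97), in monocytes at 4-weeks (Sftpa1, -0.34 to 0.59), in monocytes 1 (Sftpc, -0.78 to 0.62; Sftpa1, -0.66 to 0.011; Scgb1a1, -0.11 to 1.84) and in monocytes 2 (Sftpc, -1.15 to 1.45; Sftpa1, -0.52 to 0.56). It changed too for BM-AΦ against TR-AΦ (Scgb1a1, -1.14 to 0.25), monocytes 1 against 2 (Sftpc, -0.43 to 0.81) and monocytes 2 over time (Scgb1a1, -0.32 to 0.14). None of these had passed, and the cause was not tested. In AΦ the correlation of Sftpc with Sftpa1 was 0.25 for deviations from group means against 0.51, and that of Sftpc with Scgb1a1 was 0.0018 without the 2 farthest libraries against 0.31.

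Few fragments stand behind most values, and Scgb1a1 at 112 FPKM in 1 library of BM-AΦ with FA decides that group's mean.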

Other observations

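Without the filter on low values, Sftpb was higher in AΦ than in monocytes at 4-weeks by 0.48 on the log2(FPKM + 1) scale (adjusted p = 0.0192 in limma over all genes listed). Its means were at or below 0.703 FPKM in every group.

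Over all 36 libraries the genes with the most similar pattern to Sftpc, by Pearson's r of log2(FPKM + 1) over 13307 genes, were Rpl14-ps1 (0.54), Gm10260 (0.54) and Fam179b (0.53). For Scgb1a1 they were Tprkb (0.59), Ascc2 (0.57) and Dtymk (0.56). For deviations from group means they included Sat1 (0.78) and H3f3a-ps2 (0.77) for Sftpc and were Lrba (0.68), Kifc1 (0.63) and Gm37718 (0.63) for Scgb1a1. No other member was among these genes, and pseudogenes such as Rpl14-ps1 and H3f3a-ps2 can share reads with their parent genes.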
